A study of Trametes coccinea with 18 samples.

Results

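45 of the 12690 gene models of Pycnoporus coccineus CIRM-BRFM 310 (Pycco 310), a white-rot fungus, had a transcription level on xylan-galactomannan at least 1.5 log2 above their level on each of 5 other carbon sources. The level is the mean over the 3 libraries of a carbon source of the log2 read count, that is log2 of 1 plus the count divided by a median-of-ratios size factor. A level of at least 6 log2 on xylan-galactomannan was also required. Another 2 gene models past both limits were left out of the choice from the start. The genes were chosen by their measured levels on all 6 carbon sources, so their excess on xylan-galactomannan is described below and is not tested.

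RNA was sequenced from mycelium after 3 days in liquid culture, with 3 libraries from independent cultures per carbon source and 18 libraries in all. The maltose medium held 20 g/l of maltose. The Avicel (a cellulose model substrate), aspen, pine, wheat straw and xylan-galactomannan media contained, per the labels, 2.5 g/l of maltose beside 15 g/l of the substrate, whereas the study's methods speak of sole carbon sources and do not describe xylan-galactomannan. For replicate 3 of xylan-galactomannan, the text on the medium names wheat straw in place of the mixture of xylan and galactomannan, although title and column carry the xylan-galactomannan name. The values of that library are therefore given apart for the 45 genes, and most counts over other genes are given with and without it. The RNA came from whole mycelium, so a smaller share of active hyphae and less RNA per cell cannot be told apart.

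Xylan and galactomannan are hemicelluloses, the branched polysaccharides that lie between cellulose microfibrils in plant cell walls. Xylan, with a xylose backbone, prevails in hardwood and grasses, whereas mannans are prominent in softwood. Wood-decay fungi cut such chains outside the cell with glycoside hydrolases and carbohydrate esterases, take the sugars up through transporters, and convert them inside the cell, and many of these genes are switched by sugars released from the polymer. None of the 45 genes carries a gene name, an enzyme family or a described function in the annotations at hand. They are therefore given by protein ID.

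Counts on gene models ranged from 26370228 to 42190522 per library. Across 11202 gene models with at least 90 counts in total, log2 read counts of xylan-galactomannan replicates 1 and 2 correlated with Pearson's r of 0.979. Replicate 3 correlated with them at 0.976 and 0.956. Against the wheat straw libraries, r was 0.951 to 0.953 for replicate 3, 0.913 to 0.922 for replicate 1 and 0.890 to 0.905 for replicate 2 (these values run across genes, which are not independent replicates). Replicate 3 also had the highest r of the 3 with every other source. With aspen it was 0.930 to 0.946, against 0.914 to 0.918 for replicate 1. With pine it was 0.913 to 0.936 against 0.877 to 0.908, and with Avicel 0.898 to 0.909 against 0.869 to 0.886. With maltose it was 0.867 to 0.872 against 0.855 to 0.860. The higher r was thus not limited to wheat straw.

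The 45 genes spanned a wide range of transcription levels. On xylan-galactomannan their levels ran from 6.23 to 16.13 log2 with a median of 10.06. There were 23 genes at 10 log2 or more, 6 at 12 or more, and 12 below 8. Their margin over the next highest carbon source ran from 1.51 to 3.72 log2 with a median of 1.78, and it reached 2 log2 in 17 genes. The next highest carbon source was aspen for 18 genes, pine for 11, Avicel for 8, wheat straw for 5 and maltose for 3. The lowest was maltose for 19 genes and Avicel for 13.

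Together the genes took 0.855% and 0.880% of all counts in xylan-galactomannan replicates 1 and 2, and 0.540% in replicate 3. On maltose their share was 0.0305 to 0.0381%, on Avicel 0.0603 to 0.0875%, on wheat straw 0.0785 to 0.129%, on pine 0.0931 to 0.125% and on aspen 0.136 to 0.166%. In the sum, every xylan-galactomannan library lay above the other 15, with replicate 3 the lowest of the 3. The 4 most abundant genes alone held 0.672, 0.663 and (replicate 3) 0.411% of all counts.

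**Figure D1:**
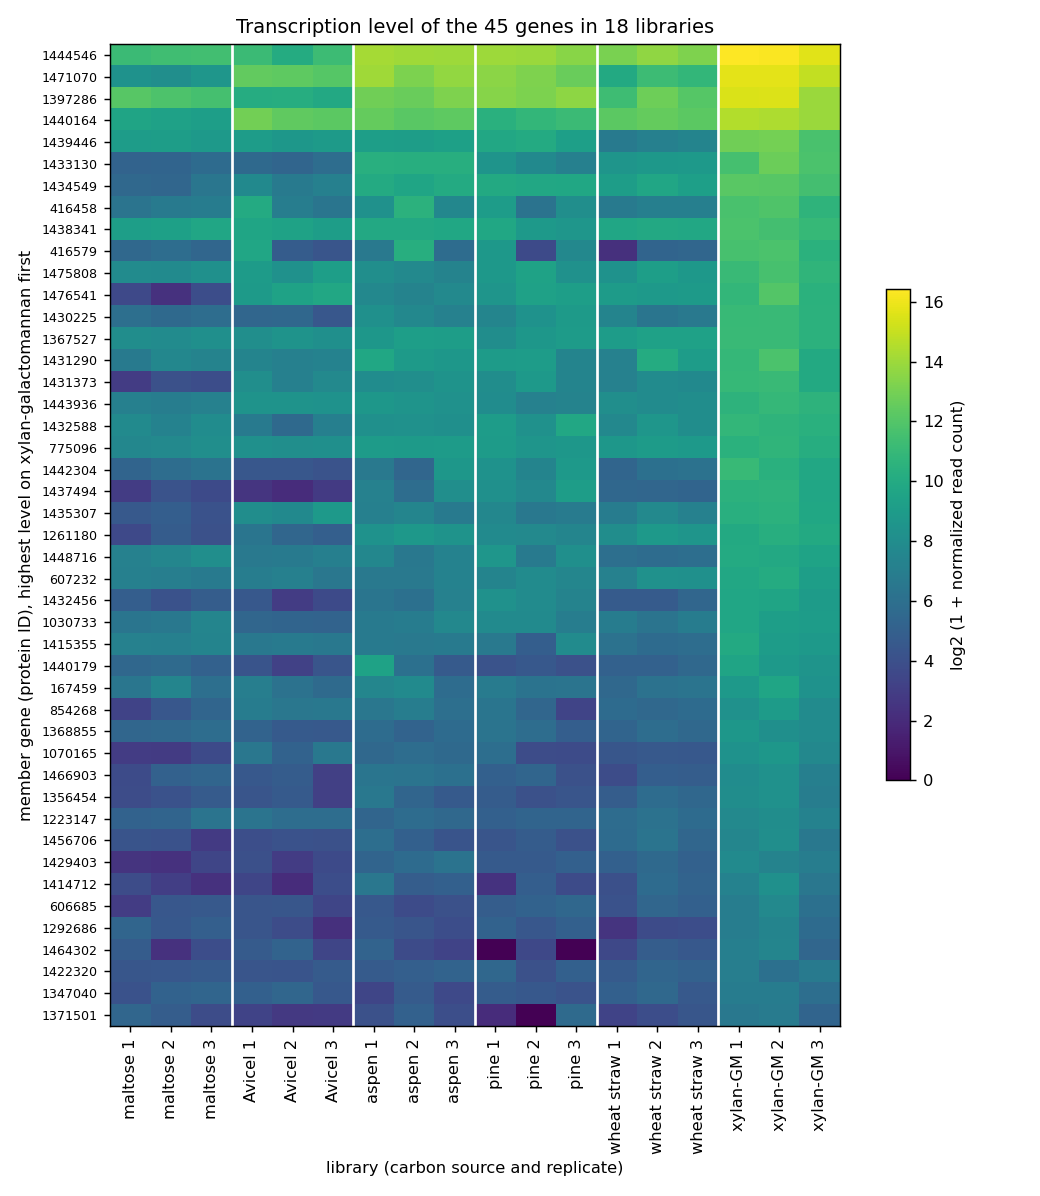
Transcription level (colour, log2 of 1 plus the normalized read count) of the 45 genes, in rows from the highest to the lowest level on xylan-galactomannan, in the 18 libraries in columns. Levels on xylan-galactomannan run from 16.13 to 6.23 log2, and its replicate 3 is the darkest (lowest) of the 3 xylan-galactomannan columns in 42 of the rows.

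Gene 1444546 had the highest level. Its normalized read count was 87013 and 79795 in xylan-galactomannan replicates 1 and 2 and 53230 in replicate 3. It was 18772, 16923 and 16471 on aspen, 16811, 15949 and 11529 on pine, and 8905, 13062 and 9812 on wheat straw. It was 2378, 2665 and 2793 on maltose and 2330, 1096 and 2462 on Avicel. The gene therefore stood on 3 steps, low on maltose and Avicel, intermediate on the plant materials and high on xylan-galactomannan, and no step overlapped the next. In the deposited RPKM, which are divided by mappable length, its mean over replicates 1 and 2 was 2597, which ranked 44 among 11862 gene models.

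Gene 1471070 reached nearly the same level per length, with a mean RPKM of 2514 over replicates 1 and 2 (rank 45). Its normalized read counts were 53777, 55721 and, in replicate 3, 30292 on xylan-galactomannan, against 17350, 9246 and 14030 on aspen and 12180, 9668 and 6327 on pine. On Avicel it had 5675, 5075 and 4297, on wheat straw 987, 2432 and 1826, and on maltose 332, 277 and 391. Its levels thus differed widely among the other carbon sources, over 5.31 log2 between aspen and maltose, with no overlap between maltose, wheat straw, Avicel and the woods.

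Gene 1397286 ranked 48 with a mean RPKM of 2420. It had 45218 and 48031 normalized reads in replicates 1 and 2 but 15900 in replicate 3. Pine gave 11089, 9352 and 12777, aspen 7343, 6479 and 9518, wheat straw 2500, 7109 and 4378, maltose 4498, 3582 and 3046, and Avicel 1131, 1192 and 949. Replicate 3 was closer to pine than to the other xylan-galactomannan libraries, and its margin over the pine mean was 0.53 log2, the smallest among the 45 genes. Gene 1440164 (mean RPKM 1006, rank 156) had 23069, 21429 and 15513 normalized reads on xylan-galactomannan. Avicel gave 7673, 5364 and 4974, a set that overlapped aspen (5857, 4826 and 5133) and wheat straw (4919, 5829 and 4883), while pine (1336, 1835 and 2297) and maltose (783, 681 and 580) were lower.

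**Figure D2:**
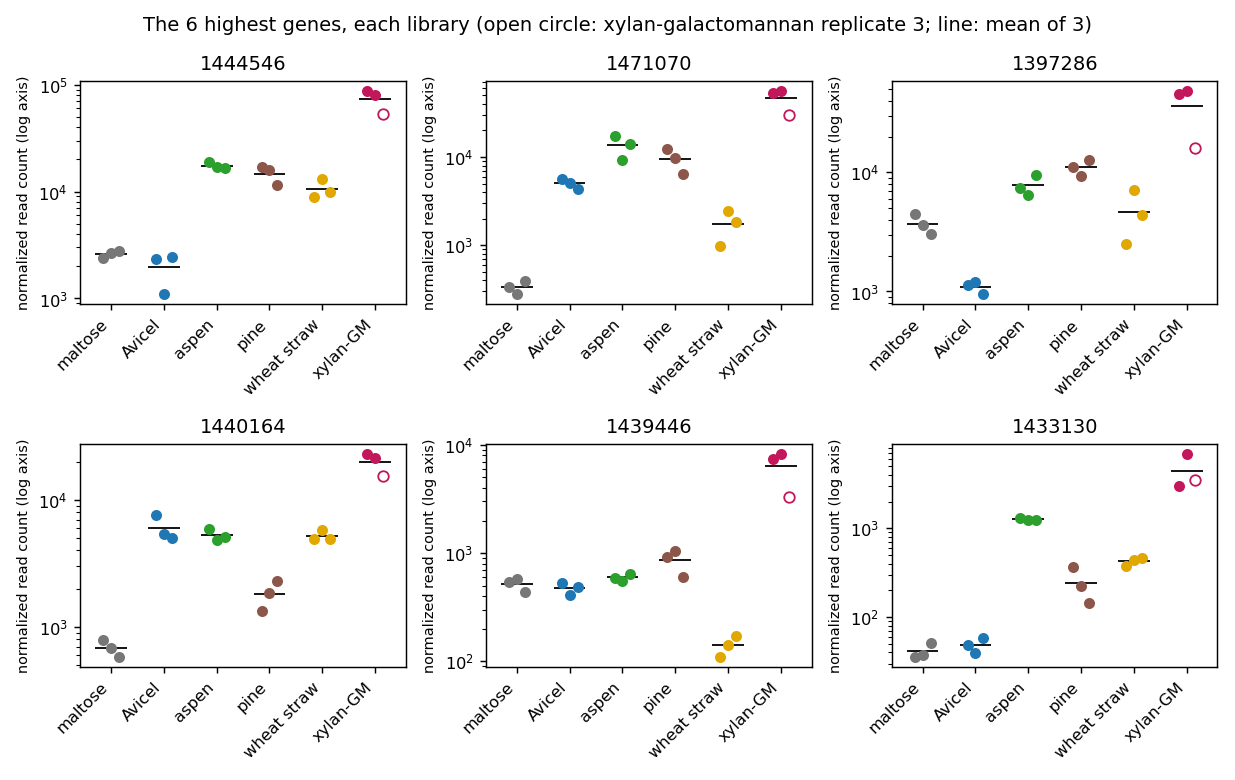
Normalized read count (log axis) of the 6 genes with the highest level on xylan-galactomannan, by carbon source, with a point per library, a line at the mean of 3 and an open circle for xylan-galactomannan replicate 3. The other 5 carbon sources are ordered differently in each gene, for example with aspen next for 1444546 and 1433130, pine next for 1397286 and 1439446, and Avicel next for 1440164.

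The largest margins were found in genes less abundant than those described so far. Gene 416579 exceeded the next mean by 3.72 log2, with 3162 and 3444 normalized reads in replicates 1 and 2 and 1424 in replicate 3. Elsewhere it was irregular, at 839, 27.0 and 19.3 on Avicel and 99.7, 1224 and 53.7 on aspen. A single Avicel library and a single aspen library thus stood far above their replicates. On pine it had 429, 11.8 and 201, on maltose 46.7, 58.4 and 42.6, and on wheat straw 3.76, 38.2 and 41.8.

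Gene 1439446 followed with a margin of 2.81 log2. Its 7352, 8257 and (replicate 3) 3333 normalized reads contrasted with 920, 1050 and 606 on pine and 110, 141 and 170 on wheat straw. Replicate 3 was below the other xylan-galactomannan libraries and above every library of the other sources, of which wheat straw was the lowest. Gene 1430225 (margin 2.65 log2) had 2099, 2273 and 1508 normalized reads on xylan-galactomannan, 176, 334 and 490 on pine, and 21.2 to 62.3 on maltose and Avicel. Gene 1368855 (margin 2.57 log2) differed in that the other sources lay within 0.85 log2 of each other, with 23.2 to 77.4 in all 15 libraries against 419, 283 and 237 on xylan-galactomannan.

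Genes 1431373, 1475808, 1442304, 1356454, 1443936, 1440179 and 1464302 had margins of 2.54 to 2.21 log2. Of these, 1464302 was weakly transcribed, with 134, 178 and 42.4 normalized reads on xylan-galactomannan and 0 counts in 2 of the pine libraries. Gene 1440179 had 782, 441 and 355 on xylan-galactomannan but also 714 in a single aspen library, beside 65.6 and 24.6 in the other aspen cultures. The values of 1443936 were the most even on xylan-galactomannan among these 7, at 1529, 1951 and 1536.

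Since the medium text of replicate 3 names another substrate, each gene was read without it and in it alone. All 3 xylan-galactomannan libraries lay above all 15 others in 42 of the 45 genes. The same was true of 4.58% of all gene models detected, and the choice of the genes leads to such a pattern. The exceptions were 1440179 and, named after their values were seen, 1431290 and 1371501. In each of them replicate 3 was below at least 1 library of another source, for example at 1013 normalized reads against 1092 in a wheat straw library for 1431290. Replicate 3 alone was above all 15 others in 42 genes (background 6.0%).

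Replicate 3 was the lowest xylan-galactomannan library in 42 genes (background 42.2% of gene models). The exceptions were 1433130, 1443936 and, named after its values were seen, 1422320. The level in replicate 3 minus the mean of replicates 1 and 2 had a median of -0.73 log2 and ran from -1.84 to 0.17, while the median over all genes was -0.06. It was lower by more than 0.5 log2 in 37 genes and by more than 1 log2 in 14. The choice used all 3 xylan-galactomannan libraries, so these values describe the 45 genes, with nothing read from their distance to the background. Its margin over the next highest mean was above 0 in 45 genes and at least 1.5 log2 in 18, with a median of 1.38. In normalized read counts, replicate 3 stood at a median of 52.8% of the way from the wheat straw mean to the mean of replicates 1 and 2 (range 16.6 to 110%). The same figure was not computed from the other carbon sources, so it does not set wheat straw apart from them.

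**Figure D3:**
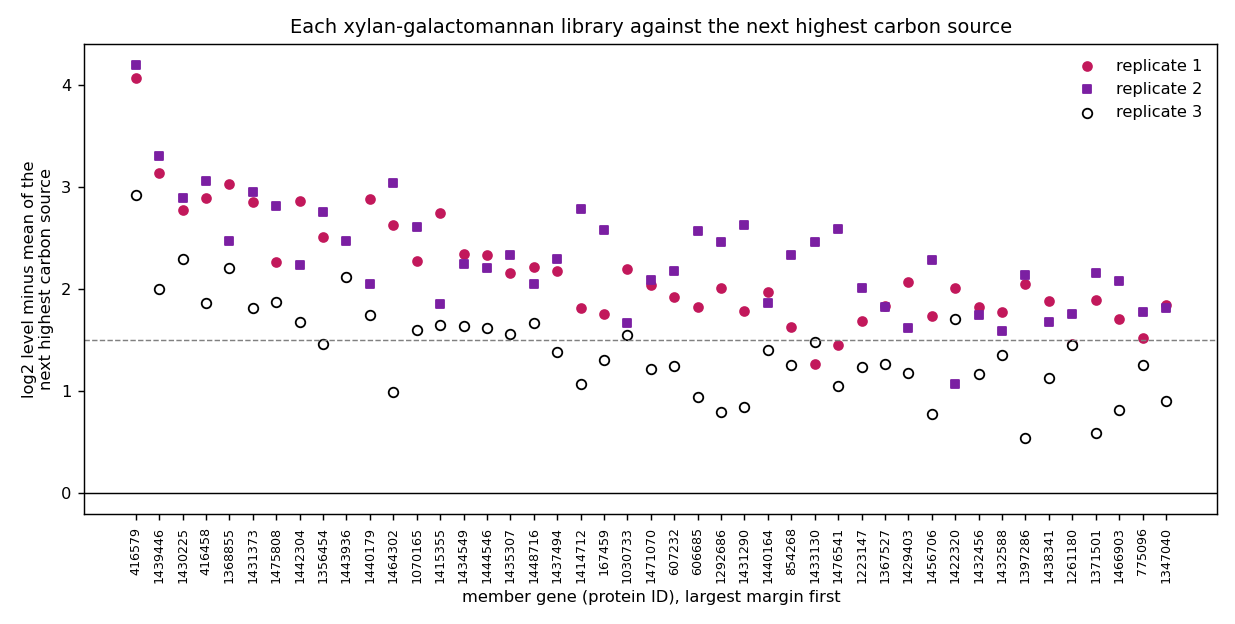
Level in each xylan-galactomannan library minus the mean level of the next highest carbon source (log2), for the 45 genes from the largest to the smallest margin, with the limit of 1.5 log2 dashed. Replicate 3 (open circles) is above 0 in every gene, from 0.53 to 2.92 log2, and at or above the dashed line in 18.

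Choosing the genes from 2 xylan-galactomannan libraries left the third unused, although the levels on the other sources still entered the choice. Without replicate 3, 88 gene models passed the limits, among them all 45. In replicate 3, 84 of these exceeded the next highest mean, 73 exceeded all 15 other libraries, and 18 kept a margin of 1.5 log2. The median margin of the 88 was 1.83 log2 in the libraries used and 0.96 log2 in replicate 3. Without replicate 1, 38 gene models passed, and replicate 1 kept the margin in 33 of them, with a median of 2.13 log2. Without replicate 2, 31 passed, and replicate 2 kept the margin in 28, with a median of 2.24 log2. The 3 sets hold different genes and those that include replicate 3 are stricter, so these medians are a description of each set and do not compare the libraries.

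The 15 libraries of the other carbon sources show how the genes behaved without added xylan-galactomannan. The choice used their levels in these libraries as upper limits, so the counts below are not independent of it and describe the 45 genes, with nothing read from their distance to the background. The genes were tested in one edgeR quasi-likelihood fit of the raw counts over all gene models with Benjamini-Hochberg adjustment, where a call needed both a change of more than 1 log2 and an adjusted p below 0.05. In comparison to maltose, 26 of the 45 (57.8%) rose on aspen (background 19.5% of gene models) and 0 fell (14.8%). On pine, 18 (40.0%) rose (background 22.1%) and 0 fell (18.1%). With an unadjusted p below 0.05 in edgeR, 0 fell on either wood, while DESeq2 called 0 down on aspen and 1 on pine. Of the 87 genes chosen without xylan-galactomannan replicate 3, 33 rose and 8 fell on pine (background 22.1% and 18.1%). For the 45, leaving out pine replicate 3 gave 2 falls on pine, and leaving out pine replicate 2 or aspen replicate 1 gave 1. On aspen, leaving out aspen replicate 2 or maltose replicate 1 gave 1 fall. The absence of falls on either wood is therefore not firm. Growth on wheat straw raised 18 (40.0%, background 17.3%) and lowered 4 (12.9%), and Avicel raised 10 (22.2%, background 14.1%) and lowered 4 (15.2%).

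The median log2 fold change of the 45 genes was largest on aspen at 1.44, followed by pine with 0.94, wheat straw with 0.86 and Avicel with 0.06, while over all gene models tested it was -0.02, 0.00, 0.02 and 0.07. In 13 genes the transcription level rose on aspen, pine and wheat straw (background 11.5%). Of these, 7 also rose on Avicel (background 6.93% of gene models for all 4 sources) and 6 were not called there (4.36%). There were 11 genes called on none of the 4 carbon sources (background 39.3%). A rise on Avicel alone was seen in 0 genes, against 3.2% of all gene models.

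**Figure D4:**
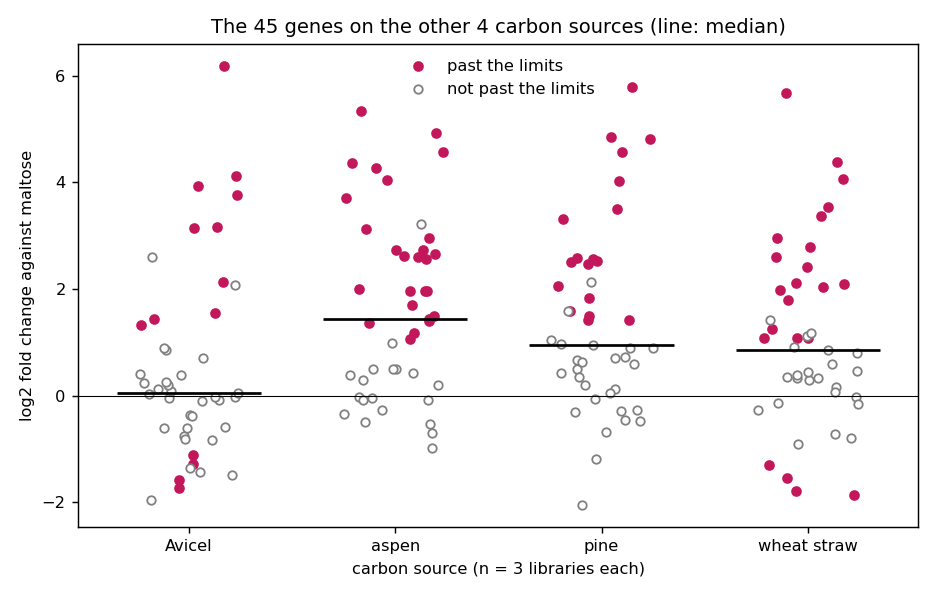
Log2 fold change in comparison to maltose of the 45 genes on Avicel, aspen, pine and wheat straw, with filled points past the limits (adjusted p under 0.05 and more than 1 log2), open points not past them, and a line at the median. The medians are 0.06, 1.44, 0.94 and 0.86, and downward calls appear on Avicel and wheat straw only.

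Among the genes that rose on every one of the 4 sources, 1476541 had the largest change. It had 11.1, 4.17 and 13.9 normalized reads on maltose, 495, 688 and 921 on Avicel, 384, 675 and 579 on pine, 522, 461 and 501 on wheat straw, 203, 159 and 211 on aspen, and 1854, 4090 and 1399 on xylan-galactomannan. The low maltose libraries were clear of all others. Log2 fold changes were 6.18 ± 0.38 on Avicel (SE, edgeR adjusted p = 1.04e-08), 5.79 ± 0.38 on pine, 5.67 ± 0.37 on wheat straw and 4.27 ± 0.37 on aspen.

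Gene 1431373 behaved alike, with 6.67, 15.6 and 13.9 normalized reads on maltose and 143 to 445 in all 12 libraries of Avicel and the plant materials. Its fold changes were 4.07 to 4.58 log2, each with a standard error of 0.42, and xylan-galactomannan gave 2078, 2231 and, in replicate 3, 1007. Gene 1471070, described above, rose by 5.34 ± 0.37 log2 on aspen, 4.82 ± 0.36 on pine, 3.94 ± 0.35 on Avicel and 2.41 ± 0.33 on wheat straw. Gene 1440164 rose by 3.17 ± 0.23 on Avicel, 2.96 ± 0.23 on wheat straw, 2.95 ± 0.23 on aspen and 1.42 ± 0.22 on pine, and 1261180 by 1.56 ± 0.39 on Avicel and 3.51 to 4.37 on the plant materials. The model of 1261180 overlaps by 183 bases that of 1378769, which is at 14.66 against 10.06 log2 on xylan-galactomannan, and their levels correlated with r = 0.98 over the 15 libraries without xylan-galactomannan. Of its 584 bases 224 are mappable, so the counts of 1261180 may be shared reads and are uncertain.

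Other genes rose on plant materials and were not called on Avicel. Gene 1433130 had 35.6, 37.6 and 51.5 normalized reads on maltose and 48.3, 39.2 and 58.0 on Avicel. It had 1300, 1231 and 1249 on aspen, 375, 438 and 465 on wheat straw, and 363, 224 and 143 on pine. Maltose and Avicel overlapped, and all plant libraries lay above both. The log2 fold change was 4.92 ± 0.32 on aspen (edgeR adjusted p = 7.46e-09), 3.37 ± 0.30 on wheat straw, 2.56 ± 0.30 on pine and 0.25 ± 0.30 on Avicel. This gene was highest in xylan-galactomannan replicate 2, with 6904 normalized reads, against 3018 in replicate 1 and 3503 in replicate 3.

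Gene 1437494 favoured pine, with 297, 205 and 555 normalized reads there, 146, 57.1 and 277 on aspen, 43.6, 42.3 and 38.7 on wheat straw, and 3.27 to 17.7 on maltose and Avicel. In comparison to maltose, pine raised it by 4.85 ± 0.56 log2, aspen by 3.70 ± 0.55 and wheat straw by 1.79 ± 0.55, a call lost without maltose replicate 1 (1.51). The most abundant gene, 1444546, rose by 2.74 ± 0.28 on aspen, 2.50 ± 0.28 on pine and 2.04 ± 0.27 on straw, and Avicel gave -0.38 ± 0.26. Gene 1430225 rose by 1.97 ± 0.40 on aspen, 2.57 ± 0.41 on pine and 1.07 ± 0.40 on straw, a call lost in 5 alternatives (0.70 without wheat straw replicate 1).

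A few genes fell below their maltose level on another source while standing highest on xylan-galactomannan. Gene 1439446 fell by 1.86 ± 0.23 log2 on wheat straw (edgeR adjusted p = 4.81e-06), where its 110, 141 and 170 normalized reads lay below the 441 to 571 on maltose, and it was called on no other source. Gene 1448716 fell by 1.79 ± 0.40 on wheat straw. Gene 1397286 fell by 1.74 ± 0.30 on Avicel and rose by 1.58 ± 0.30 on pine. Its rise of 1.07 ± 0.29 on aspen was no longer past the limit without aspen replicate 3 (0.90) or maltose replicate 3 (0.94). Gene 1030733 fell by 1.58 ± 0.36 on Avicel. At the other end, 1438341 was even, with 400 to 967 normalized reads in the 15 libraries, no call, and 3412, 2956 and 2023 on xylan-galactomannan. Gene 1475808, also without a call, had 161 to 707 in those libraries and 2191, 3218 and 1669 on xylan-galactomannan.

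The RefSeq table of the Pycco1 assembly holds all 45 genes by locus tag, and it was used for gene order alone. The models of 16 of the 45 overlap an adjacent model, as do 24.6% of all protein-coding models in that table. Among them are 1431373 (610 bases, with a neighbour at 9.81 log2 on xylan-galactomannan), 1476541 (350 bases, neighbour at 4.65) and 1440164 (135 bases, neighbour at 6.88), each more abundant than its neighbour. Adjacent genes of the set formed 3 pairs. The gene models 416458 and 416579 overlap by 90 bases, so their counts may share reads and are uncertain as separate values. Gene 416458 had 3344, 3746 and 1632 normalized reads on xylan-galactomannan, and like its neighbour it stood high in a single Avicel library (1027 against 123 and 83.1) and a single aspen library (1460 against 319 and 195). Over the 15 libraries without xylan-galactomannan, the log2 levels of the pair correlated with r = 0.91 (a description over libraries that fall into 5 groups).

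Gene 1434549 lies 352 bases from 1444546, the most abundant gene. It had 4807, 4512 and 2947 normalized reads on xylan-galactomannan, and 45.6, 41.7 and 87.1 on maltose. Its log2 level correlated with that of 1444546 over the 15 libraries with r = 0.91. Both rose on the 3 plant materials, 1434549 by 3.53 to 4.03 log2, whereas on Avicel 1434549 rose by 1.44 ± 0.31 and 1444546 changed by -0.38 ± 0.26. The third pair, 607232 and 606685, has overlapping models (259 bases), with 919, 1099 and 573 and with 124, 209 and 66.9 normalized reads on xylan-galactomannan, and r was 0.66 over the 15 libraries. Other members lay near each other but not next to each other, namely 1371501 and 1347040 with 1 gene between them and 1223147 and 1432456 with 2 (named after their positions were seen).

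**Figure D5:**
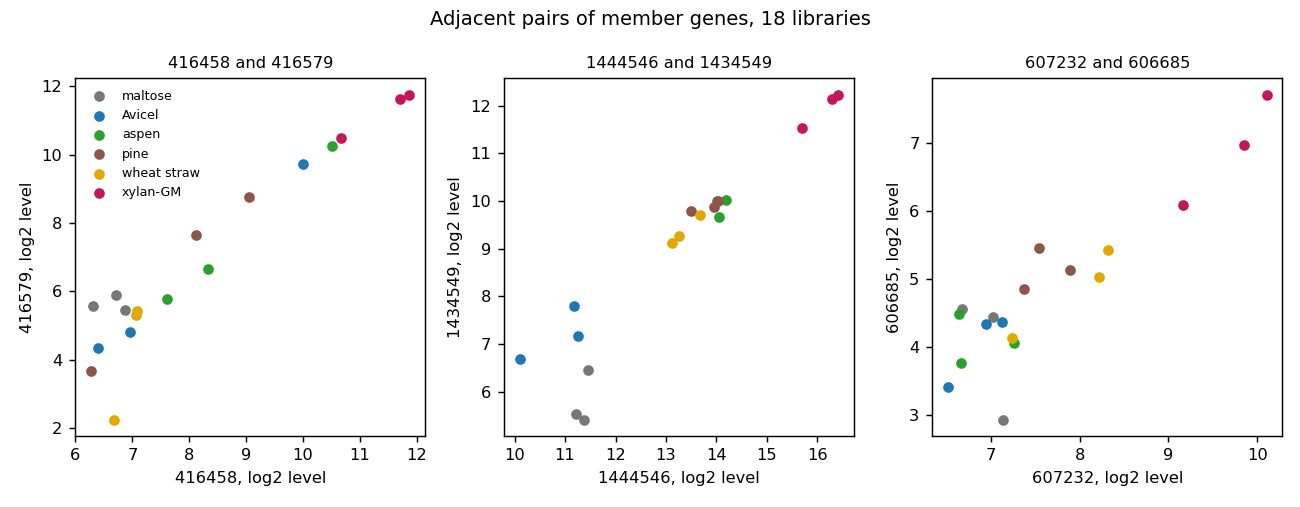
Log2 level of the genes of each adjacent pair against each other in the 18 libraries, coloured by carbon source. The xylan-galactomannan libraries lie at the upper right in each panel, and in the left panel 1 Avicel and 1 aspen library lie near them.

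The flanking genes outside the set were 82, of which 78 could be tested in the fit of all 18 libraries. On xylan-galactomannan, 21 of them rose (26.9%, background 19.4%) and 8 fell (10.3%, background 14.5%) in comparison to maltose. In comparison to Avicel 17 rose and 7 fell (background 16.3% and 14.2%), to aspen 11 and 4 (11.1% and 13.3%), to pine 20 and 10 (18.1% and 18.5%), and to wheat straw 14 and 6 (11.2% and 12.1%). However, 12 of these flanking models overlap a gene of the set and may share its reads. Among the 66 that do not, 15 rose and 8 fell in comparison to maltose, and 6 rose in comparison to aspen, 9.09% against the background of 11.1%. Without replicate 3, 21 of 79 flanking genes rose and 10 fell in comparison to maltose (background 20% and 18.5%). In comparison to Avicel 19 rose and 10 fell (17.6% and 18.3%), and to aspen 13 and 8 (13.2% and 16.5%). The numbers were 19 and 12 for pine (19.2% and 20.7%) and 16 and 14 for wheat straw (13.8% and 16.5%). The smaller share of falls than in the background against wheat straw was thus not kept without replicate 3. These comparisons share the xylan-galactomannan libraries. The 45 gene models were short, with a median of 910 bases against 1264 for all gene models, and 25 of them (55.6%) were under 1000 bases against 34.6% of all. Mappable length was under 80% of model length in 12 of the 45 (background 23.1%).

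The limit of the margin passed through closely spaced values. Just inside it were 1347040 (margin 1.514 log2), 775096 (1.515) and 1466903 (1.527). Just outside were 1378769 (1.471), 1439829 (1.466) and 1354937 (1.458). Of these, 1378769 had a level of 14.66 log2 on xylan-galactomannan (14.67 in replicates 1 and 2, 14.63 in replicate 3), which would have placed it among the 4 most abundant, and it is annotated as an aldo/keto reductase, a family that includes fungal enzymes reducing sugars to sugar alcohols.

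Genes with a described part in polysaccharide use were read beside the 45 from lists drawn from the study's annotation. None of their 43 genes was among the 45, but the set is 45 of 12690 gene models, so nothing is read from this. The study had selected the genes by transcription on these carbon sources, or by secreted proteins found for groups of similarly transcribed genes. The former were high on plant materials and up against maltose, and the latter mostly highest on Avicel. The counts here and in the next paragraph are thus partly set by that selection, with nothing read from their distance to the background. In comparison to maltose, 12 of 16 hemicellulose genes rose on xylan-galactomannan and 1 fell (background 19.4% up and 14.5% down), also without replicate 3. Among them was a GH43, a family of arabinofuranosidases and xylosidases, with 6.53 ± 1.02 log2 (6.79 ± 1.06 without replicate 3). The 6 pectin genes and 4 of 7 sugar uptake and conversion genes rose, with and without replicate 3. Of 14 cellulose genes, 4 rose and 2 fell, and 4 and 3 without replicate 3.

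In comparison to the other substrates the lists differed. Over all gene models tested, 16.3% rose and 14.2% fell in comparison to Avicel, and 11.1% and 13.3% to aspen. The shares were 18.1% and 18.5% for pine, and 11.2% and 12.1% for wheat straw. In the lists of 6 pectin and 7 sugar genes, nothing is read from counts of 1 or 2. Of the hemicellulose genes 5 rose and 7 fell in comparison to Avicel, 1 and 7 to pine, 1 and 6 to wheat straw, and 0 and 10 to aspen. The 0 was also found at an unadjusted p below 0.05 in edgeR and by DESeq2, but was 1 without replicate 3, with 10 still falling. Without that library, 5 rose and 6 fell in comparison to Avicel, 1 and 8 to pine, and 2 and 6 to wheat straw. Of the cellulose genes 13 fell in each of these comparisons, and 1 rose in comparison to aspen. Without replicate 3 the same numbers were found, except that 12 fell in comparison to pine. Of the pectin genes 5 rose and 1 fell in comparison to Avicel, 3 and 1 to aspen, 1 and 2 to pine, and 2 and 2 to wheat straw. The last became 2 and 1 without replicate 3, and the others stayed as they were. Of the sugar genes 5 rose and 1 fell in comparison to Avicel, and on the plant materials 0 rose (0 also at an unadjusted p below 0.05 in edgeR and by DESeq2) and 1 (aspen), 4 (pine) and 2 (wheat straw) fell. Without replicate 3, 0 rose there as well, and 2 (aspen), 3 (pine) and 2 (wheat straw) fell. The background shares without replicate 3 are those given above for the flanking genes.

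The nearest of these listed genes to the limits of the set was a GH28, a family of polygalacturonases that cut pectin. Its level was 13.21 log2 in replicates 1 and 2 and 12.97 in replicate 3, with margins of 1.42 and 1.19 log2 over the next carbon source. The listed GH10 xylanases, which cut the xylan backbone, were at 6.68 and 7.19 log2 in replicates 1 and 2 and 6.92 and 6.87 in replicate 3. On aspen they were at 13.59 and 13.00. GH10 genes outside the list, if any, were not read. Like the counts, levels of listed genes are partly set by how the study selected them, here by high transcription on plant materials. Among the listed hemicellulose genes, a GH51 (arabinofuranosidase family) was the only one with its highest mean on xylan-galactomannan, by 0.02 log2, and without replicate 3 its margin was -0.13.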

How the data were processed

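RNA-seq of Pycco 310 was deposited as raw counts per gene model and as RPKM for 18 libraries, with 0 value columns left unmatched. The authors trimmed 150-base paired-end reads with the JGI pipeline, aligned them with TopHat2 and counted them with HTSeq. Other settings and strand handling are not given in the sources used here. The RPKM deposited by the authors equal the counts over mappable length and library total within 1e-06 for 11862 of 11862 gene models with such a length, and served only for levels between genes. Mappable length and model length were deposited as other values beside them. The submitters' notes also name DESeq 1.5.

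Library totals of 26370228 to 42190522 counts set the precision, and 773 gene models had no count in any library. The 45 genes were chosen by level and margin, and the genes and lists were chosen with earlier results of these data known. Counts were tested with edgeR 4.0.16 and limma 3.58.1 in R 4.3.3 (TMM, filterByExpr, glmQLFit, glmQLFTest, Benjamini-Hochberg), in a fit of 15 libraries for the 45 genes (11112 gene models) and of 18 for lists and flanking genes (11168). The standard error is the absolute log2 fold change over the square root of F. The steps were tested on simulated data. Named genes are the 12 with the largest margin, the 12 highest, the 2 called furthest up and 2 down per carbon source, adjacent pairs, and 3 on either side of the margin limit. Alternatives were DESeq2 1.42.0, RLE factors, no filter, other libraries in the fit, a replicate block, other limits and leaving out each library. In the fit of 18 libraries, only those of maltose and xylan-galactomannan were left out in turn. Replicate numbers were not treated as pairs. In 0 of 15 pairs of groups did all 3 correlations of deviations exceed 0.1 (range -0.14 to 0.27), which does not exclude a weaker tie. Python 3.11.15, numpy 2.4.6, pandas 2.3.3 and matplotlib 3.10.9 were used.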

Additional observations from a re-analysis of the deposited data

How the results depend on the processing

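The number of genes in the set depended on the limits and on replicate 3. With a margin of 1 log2, 178 gene models passed, and with 2 log2, 17. Leaving out each library in turn gave 31 to 87, the 87 (all 45 among them) without xylan-galactomannan replicate 3 and with size factors recomputed. Other scalings, added constants, minimum levels and the log2 of the mean gave 33 to 55. With the 87 genes chosen without replicate 3, an alternative added after seeing the data, 26 were called on Avicel in comparison to maltose. There were 41 on aspen, 41 on pine (33 up and 8 down) and 33 on wheat straw. Of the 45, 14, 26, 18 and 22 were called. The sets differ in size, so a larger count does not mean a larger share. Leaving out single libraries gave 12 to 15 calls on Avicel, 23 to 27 on aspen, 16 to 21 on pine and 17 to 24 on wheat straw. DESeq2 gave 15, 26, 19 and 23. For the lists on xylan-galactomannan in comparison to maltose, single libraries of these 2 sources were left out. This gave 13 called hemicellulose genes each time, 5 to 7 cellulose genes, 6 pectin genes and 4 to 5 sugar genes. Further alternatives were added after seeing the data. Among flanking genes that overlap no gene of the set, 6 in place of 11 rose in comparison to aspen, and without replicate 3, 2 in place of 1 sugar gene were called in comparison to aspen. With the replicate number as a block, 13, 26, 17 and 21 of the 45 were called.

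Of 53 called fold changes of named genes, 1036 of 1060 values under the alternatives kept their call, 24 fell short of a limit and 0 changed direction. The losses lay in 10 fold changes, most often 1430225 on wheat straw (5 alternatives), and 1397286 on aspen lost its call in 2. The depth of these libraries limits the weakest genes most, such as 1464302 and 1371501, with libraries at 0 counts. With 3 libraries per carbon source, and 2 once replicate 3 is set aside, margins near 1.5 log2 are not firm. Whether replicate 3 grew on wheat straw, on the mixture or on both was not tested.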
